A study of Mus musculus with 4 samples.

Results

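Translation initiation factors were examined in bone marrow myeloid-derived suppressor cells (MDSCs), cells of neutrophil and monocyte lineages that dampen T cell responses, from mice lacking lysosomal acid lipase (LAL). Members were all genes whose symbol begins with Eif and a digit and that have a probe set naming that gene alone. The family so defined includes the kinases that phosphorylate eIF2 (Eif2ak) and the proteins that bind eIF4E (Eif4ebp). It held 49 genes with 58 probe sets, of 19938 genes in all. Where a gene had several probe sets, the one with the highest mean over the arrays stood for it. Among the members, probe set numbers run together by chromosome. For Eif2s2, Eif3m, Eif4a1, Eif4e, Eif4e1b and Eif5a the probe set so chosen is numbered away from the gene's chromosome. Which locus these probe sets measure was not tested. Eif2s1, which encodes the eIF2 subunit that the kinases phosphorylate, and Eif4g1, the main eIF4G scaffold, have no probe set of this kind and were not analysed here.

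The series holds 4 arrays, 2 for each genotype, wild type (lal+/+) and lal-/-. The lal-/- mice carry a knock-out of Lipa, the gene for LAL, which hydrolyses cholesteryl esters and triglycerides in lysosomes. Mice were 5 months old, on the FVB/N background after 10 generations of backcrossing, and were not treated otherwise. The labels name the cells CD11b+ Gr-1+ and the methods describe magnetic selection of Ly6G+ cells. Neither source says which mouse or how many mice gave each array, so that the p-values below measure only the spread between arrays, which may be technical. The knock-out is in every cell of the animal.

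Initiation brings the small ribosomal subunit to the start codon of an mRNA. eIF2 carries the initiator tRNA as a complex with GTP, and eIF2B recharges eIF2 with GTP after each round. eIF1, eIF1A and eIF3 hold the small subunit open for scanning, and the eIF4 proteins bind the mRNA cap and unwind the leader that follows it. eIF5 and eIF5B then allow the large subunit to join. Control acts chiefly at a pair of points. Stress kinases phosphorylate eIF2, which makes it block eIF2B, and the 4E binding proteins sequester eIF4E until the kinase mTORC1 phosphorylates them. Neither phosphorylation nor protein amount was measured by these arrays.

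The labels were checked first. The log2 level of Lipa was 9.50 and 9.05 in the lal+/+ arrays and 7.37 and 7.49 in the lal-/- arrays, a log2 fold change of -1.85 (limma, adjusted p = 4.17e-04). Ly6g, which encodes the surface marker used for selection, was 10.19 and 9.80 in lal+/+ and 12.91 and 12.84 in lal-/- arrays (log2 fold change 2.88, limma adjusted p = 8.00e-05). Arrays of 1 genotype correlated at r = 0.988 (lal+/+) and 0.994 (lal-/-), and arrays of different genotypes at 0.927 to 0.937. Markers of other cells moved with genotype. All 7 measured B cell markers were called lower in lal-/- MDSCs (summed log2 level 12.85 to 12.99 in lal+/+ and 8.98 to 9.04 in lal-/-), with Ms4a1, Ebf1 and Cr2 at background there. Of 8 monocyte and macrophage markers 5 were called lower (12.69 to 12.81 against 10.68 to 10.73), with Mrc1 and Spic at background in lal-/-. All 5 promyelocyte markers were called higher (8.02 to 8.07 against 11.42 to 11.46) and all 5 were at background in lal+/+ arrays. Cycling markers were called higher for 3 of 4 genes (9.85 to 9.98 against 11.34 to 11.40), neutrophil markers for 5 of 10 with 1 lower (15.60 to 15.64 against 16.31 to 16.32), and T cell markers for 1 of 5 with 2 lower. The T cell sum was 11.31 to 11.35 against 12.82 to 12.83, a rise carried by Cd3d (log2 fold change 2.42), while the other 4 T cell genes had values below 0 (list median -0.64). None of 3 erythroid markers was called. The part of these cell types in the changes described below was not tested, and in RNA from a selected population fewer cells of a type and less RNA per cell cannot be told apart.

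Of the 49 genes 5 were called higher and 2 lower in lal-/- MDSCs. Calls required a change of 2-fold or more together with an adjusted p below 0.05. Those higher were Eif4e3, Eif5a, Eif2b2, Eif4h and Eif4ebp2, and those lower were Eif5b and Eif3a. The shares were 10.2% and 4.08% of the family, where 7.56% and 3.24% of all genes were called higher and lower. With any fold, 16 members passed the adjusted p as higher and 9 as lower (32.7% and 18.4%, against 19.8% and 9.85% of all genes). The lal-/- arrays both lay above the lal+/+ arrays for 26 members and below them for 15 (53.1% and 30.6%, against 41.6% and 24.1% of all genes), and the genotypes overlapped for 8. The median log2 fold change was 0.17 over the family and 0.08 over all genes.

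These counts depended on how the arrays were put on 1 scale. The deposited columns had medians up to 0.208 apart and were quantile normalized. When the arrays were instead shifted to share 1 median, 15 members were called higher and 0 lower (30.6% of the family, against 13.1% and 2.34% of all genes), and the medians were 0.58 for the family and 0.12 for all genes. With the values as deposited, 12 were called higher and 0 lower (24.5%, against 10.1% and 3.17% of all genes), with medians of 0.40 and -0.05. The 5 genes called higher were called under each of these scalings. Eif3a and Eif5b kept an adjusted p under 0.05 but not the fold of 2. With any fold, 63.3% of members passed as higher and 6.12% as lower with a common median, where 26.7% and 7.7% of all genes did. As deposited these shares were 46.9% and 10.2%, against 21.4% and 14.5% of all genes. Each log2 fold change below is from the quantile-normalized values unless another scaling is named.

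**Figure D1:**
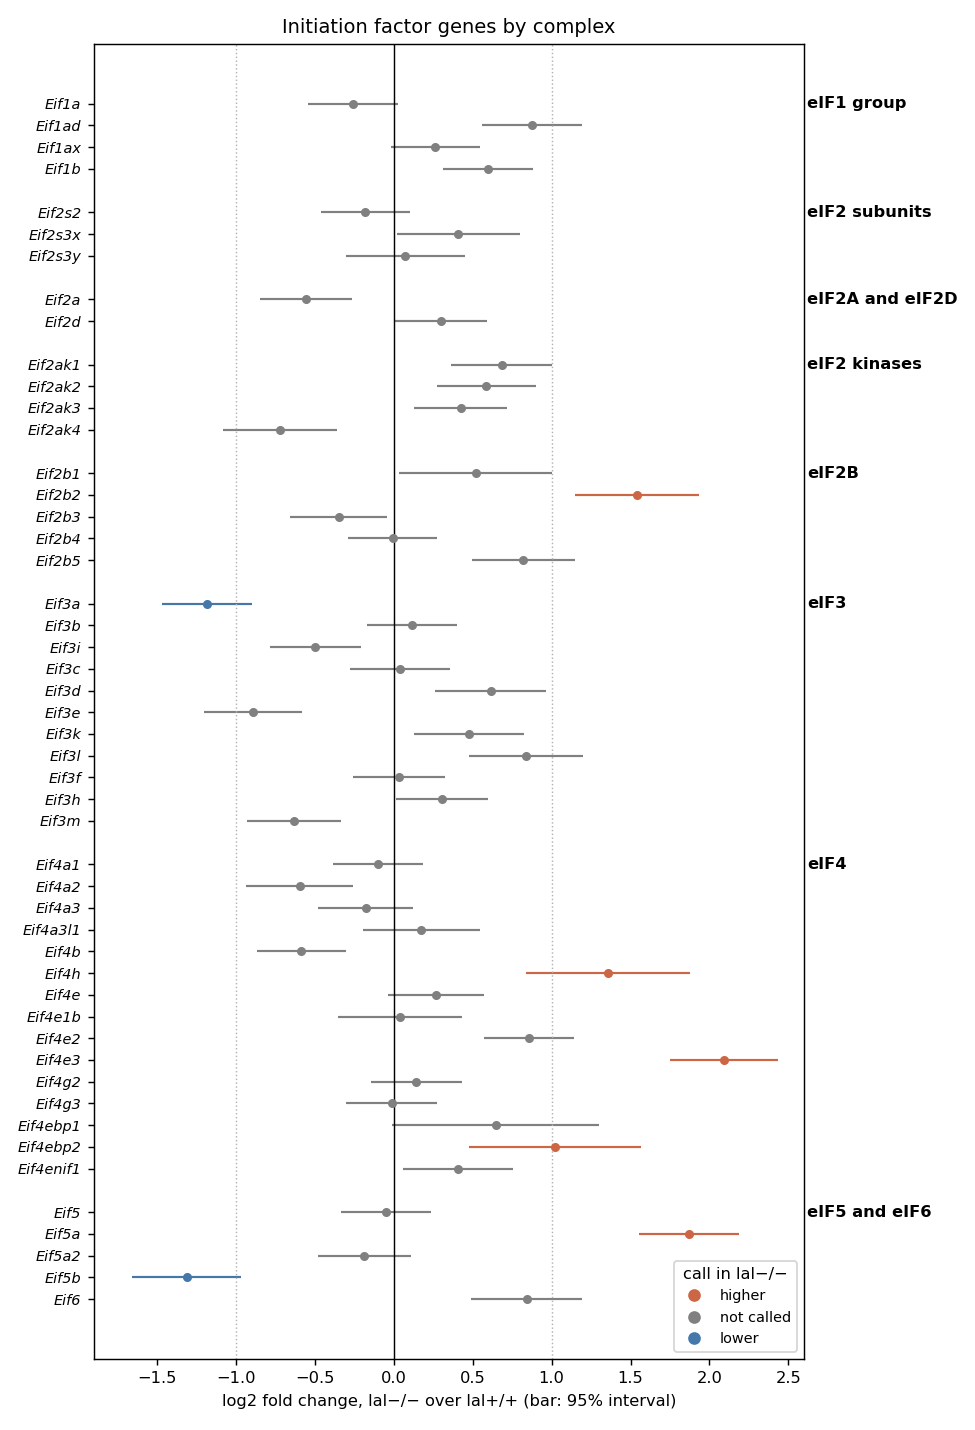
Log2 fold change (lal-/- minus lal+/+, x axis) of each of the 49 initiation factor genes, grouped by complex, with the 95% confidence interval of the limma fit as a bar and called genes in colour. Eif4e3 stands highest at 2.09 and Eif5b lowest at -1.31, and most genes lie between the fold thresholds.

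For the called genes that RefSeq's promoter table holds, the sequence around the start site is shown so that the genes that were higher can be set beside those that were lower. Each stretch runs 5′ to 3′ on the gene's strand in build GRCm38.p6, from 220 bases before the start to 30 from it. Capitals mark an E-box (CACGTG) or an ETS site (CCGGAAGT, either strand). Eif4e3 was not matched in the table.
Eif2b2 (chr12:85219261-85219510, plus strand): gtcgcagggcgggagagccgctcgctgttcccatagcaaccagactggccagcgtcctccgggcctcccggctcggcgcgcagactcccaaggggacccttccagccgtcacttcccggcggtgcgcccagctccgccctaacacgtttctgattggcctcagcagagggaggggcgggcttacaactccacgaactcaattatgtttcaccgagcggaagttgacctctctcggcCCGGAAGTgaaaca
Eif4h (chr5:134639380-134639629, minus strand): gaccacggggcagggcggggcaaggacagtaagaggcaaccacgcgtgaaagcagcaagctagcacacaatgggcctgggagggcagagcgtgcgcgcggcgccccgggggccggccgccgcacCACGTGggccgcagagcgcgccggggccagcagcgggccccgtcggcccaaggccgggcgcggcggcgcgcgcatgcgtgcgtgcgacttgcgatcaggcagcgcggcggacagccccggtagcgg
Eif5a (chr11:69920601-69920850, minus strand, 1 of 6 starts): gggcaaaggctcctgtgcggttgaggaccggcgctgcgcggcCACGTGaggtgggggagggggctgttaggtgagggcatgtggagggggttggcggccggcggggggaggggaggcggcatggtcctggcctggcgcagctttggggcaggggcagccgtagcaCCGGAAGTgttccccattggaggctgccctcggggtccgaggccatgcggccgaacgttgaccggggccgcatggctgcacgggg
Eif4ebp2 (chr10:61452640-61452889, minus strand): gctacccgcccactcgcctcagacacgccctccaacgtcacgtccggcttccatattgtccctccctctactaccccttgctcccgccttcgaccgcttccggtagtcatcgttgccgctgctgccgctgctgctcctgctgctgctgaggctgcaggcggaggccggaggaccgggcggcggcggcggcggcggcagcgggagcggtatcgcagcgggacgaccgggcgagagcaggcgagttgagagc
Eif3a (chr19:60790664-60790913, minus strand): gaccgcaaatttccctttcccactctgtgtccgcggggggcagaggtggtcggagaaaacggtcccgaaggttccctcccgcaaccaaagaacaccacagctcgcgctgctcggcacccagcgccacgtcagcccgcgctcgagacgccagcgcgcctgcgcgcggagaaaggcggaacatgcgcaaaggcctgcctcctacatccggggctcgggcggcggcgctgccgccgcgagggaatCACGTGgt
Eif5b (chr1:37997790-37998039, plus strand): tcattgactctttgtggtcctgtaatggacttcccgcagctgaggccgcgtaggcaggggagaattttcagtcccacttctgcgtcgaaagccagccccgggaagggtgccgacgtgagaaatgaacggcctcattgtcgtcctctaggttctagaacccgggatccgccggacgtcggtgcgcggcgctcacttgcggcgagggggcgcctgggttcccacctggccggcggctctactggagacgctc
Of these 6 called genes, Eif2b2 holds an ETS site, Eif4h and Eif3a hold an E-box, and Eif4ebp2 (higher) and Eif5b (lower) hold neither. Eif5a holds both at the start shown. That start was picked from its 6 for holding the most E-boxes, so its E-box follows from the choice of start. Among the genes with 1 listed start, the E-box was thus present in a gene called lower (Eif3a) and in a gene called higher (Eif4h).

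Across the 39 members with an entry, 9 hold an E-box in the 300-base window (23.1%, against 8.09% of 27025 genes) and 8 hold an ETS site (20.5%, against 4.31%). The E-box genes are Eif1b, Eif3a, Eif3f, Eif3k, Eif4a1, Eif4e, Eif4h, Eif5a and Eif5a2. The ETS genes are Eif2ak1, Eif2b2, Eif2b4, Eif3d, Eif3l, Eif4e2, Eif5a and Eif5a2, so that Eif5a and Eif5a2 carry both. A pyrimidine start, C and then 4 of C or T, as in mRNAs controlled by mTORC1, began at a listed start of Eif2s3x and Eif3f (5.13% of members, 3.01% of all genes). Of the stress-response elements, TGATGNAA occurred in Eif2s3x alone (2.56%, against 4.51%) and the cyclic AMP element TGACGTCA in 0 members (against 2.03%). Both strands were searched for every motif but the pyrimidine start, and the comparison with all genes was not matched for base composition.

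The genes that bind the cap or regulate its binding held the largest increase. Eif4e3 encodes a member of the eIF4E family that binds the cap in an atypical way. Its log2 level was 9.22 and 8.95 in the lal+/+ arrays and 11.24 and 11.11 in the lal-/- arrays. Both lal-/- arrays lay far above both lal+/+ arrays, a 4.26-fold increase (log2 fold change 2.09, SE 0.14, limma adjusted p = 1.47e-04).

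Eif4e, the cap-binding protein of general translation, was 8.59 and 8.48 in lal+/+ and 8.73 and 8.87 in lal-/- arrays. The genotypes did not overlap, but the difference of 0.27 (95% interval -0.04 to 0.57) did not pass the test (limma, adjusted p = 0.168). Its other probe sets gave -0.58 (adjusted p = 0.0289) and 0.31, so that the direction for Eif4e rests on the probe set chosen. By number both of these lie among those of chromosome 3, where Eif4e is placed, and the probe set chosen does not. The one that passed as lower was about as bright in lal+/+ arrays (mean 8.58, against 8.54 for the probe set chosen). Which locus the chosen probe set measures was not tested. Eif4e2, a cap-binding protein that represses translation, was 8.40 and 8.32 in lal+/+ and 9.20 and 9.24 in lal-/- arrays. It passed the adjusted p but not the fold (log2 fold change 0.86, limma adjusted p = 0.00214). It was called higher under both other scalings. Eif4e1b, a form known from oocytes, had a log2 fold change of 0.04, and -0.66 (adjusted p = 0.00830) in its other probe set. Its chosen probe set is likewise numbered away from the gene's chromosome, so that the direction for Eif4e1b is not settled here.

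Eif4ebp2 and Eif4ebp1 encode 4E binding proteins, which compete with eIF4G for eIF4E. Eif4ebp2 was 7.40 and 6.70 in lal+/+ and 8.18 and 7.96 in lal-/- arrays. Both lal-/- arrays were higher, by a fold of 2.03 that lies just past the threshold (log2 fold change 1.02, SE 0.23, limma adjusted p = 0.0153). The fold fell under 2 without lal+/+ replicate 2 (0.67) or without lal-/- replicate 1 (0.91), and the adjusted p was 0.0527 when all probe sets of the array entered the fit. Eif4ebp1 was 7.27 and 8.20 in lal+/+ and 8.38 and 8.39 in lal-/- arrays. The lal+/+ arrays lay further apart than the genotypes did, and the difference of 0.65 (95% interval -0.01 to 1.30) did not pass (limma, adjusted p = 0.127). It was 0.18 without lal+/+ replicate 1, and 1.11 and called higher without lal+/+ replicate 2. Eif4enif1, the carrier that takes eIF4E into the nucleus, had 0.41 (adjusted p = 0.0822).

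**Figure D2:**
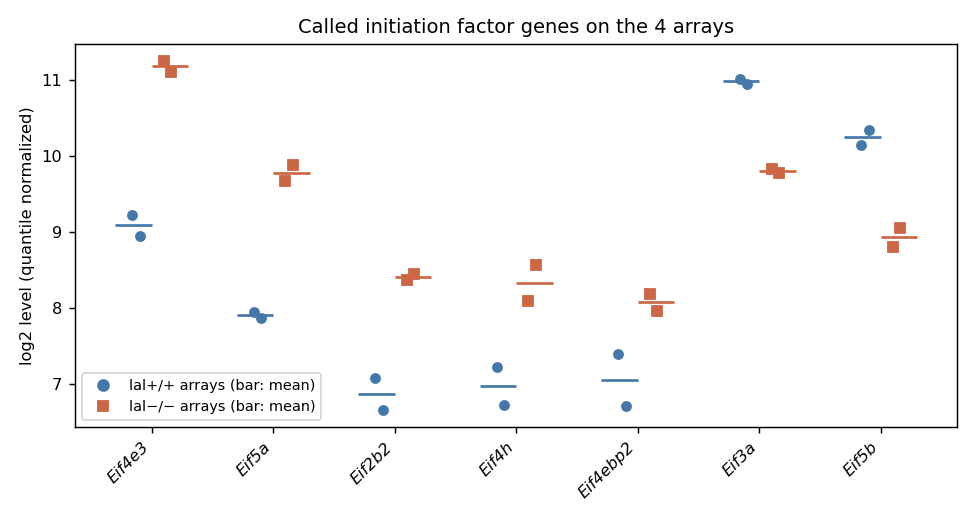
Log2 level (y axis) of the 7 called genes on each array, with lal+/+ and lal-/- arrays as separate points and the mean of each genotype as a line. For all 7 genes the lal-/- points lie on 1 side of the lal+/+ points, and the lal+/+ points of Eif4ebp2 are the furthest apart.

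Among the factors that unwind the leader, Eif4h rose and none of the helicase genes was called. Eif4h encodes a cofactor that stimulates the helicase eIF4A. It was 7.21 and 6.72 in lal+/+ and 8.09 and 8.56 in lal-/- arrays. Every lal-/- array was above every lal+/+ array, although the arrays within each genotype were nearly 0.5 apart on the log2 scale (log2 fold change 1.36, SE 0.22, 2.56-fold, limma adjusted p = 0.00391). Eif4b, the related cofactor, passed the adjusted p in the other direction (log2 fold change -0.59, adjusted p = 0.00997), but its value was 0.06 with a common median.

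Eif4a1, the main helicase, was 10.48 and 10.43 in lal+/+ and 10.36 and 10.35 in lal-/- arrays. The difference of -0.10 (95% interval -0.38 to 0.18, limma adjusted p = 0.571) did not pass. Its 3 probe sets gave -0.10, -0.17 and -0.19, but with a common median the value was 0.55 and with the deposited values 0.37. Eif4a2 had -0.60 (adjusted p = 0.0195) but did not pass as deposited (-0.36, adjusted p = 0.0900) or with a common median (-0.19, adjusted p = 0.414). These 2 genes are close copies, and probes that match both cannot separate them. Eif4a3, a helicase of the exon junction complex, had -0.18 (0.48 with a common median, 0.30 as deposited). Eif4a3l1 was at background in both genotypes. Of the eIF4G scaffolds, Eif4g2, which lacks the eIF4E site, had 0.14 and Eif4g3 -0.01 (adjusted p = 0.940). Of the 15 eIF4 genes together 3 were called higher and 0 lower, where 7.56% and 3.24% of all genes were. Their median was 0.17 (0.37 as deposited, 0.55 with a common median).

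eIF2B was represented by all 5 subunit genes, of which 1, Eif2b2, was called higher and 0 lower (7.56% and 3.24% of all genes were). Eif2b2 encodes the beta subunit, part of the regulatory core that senses phosphorylated eIF2. Its log2 level was 7.07 and 6.66 in lal+/+ and 8.37 and 8.44 in lal-/- arrays. The gap between the genotypes was wider than that within either (log2 fold change 1.54, SE 0.16, 2.91-fold, limma adjusted p = 6.93e-04). Eif2b5, the catalytic epsilon subunit, was 6.55 and 6.31 in lal+/+ and 7.29 and 7.20 in lal-/- arrays. It passed the adjusted p and not the fold (log2 fold change 0.82, limma adjusted p = 0.00451).

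For the remaining subunits the log2 fold change was 0.52 for Eif2b1 (adjusted p = 0.104), -0.35 for Eif2b3 (adjusted p = 0.0849) and -0.01 for Eif2b4. The probe sets of Eif2b1, Eif2b4 and Eif2b5 were at background in the lal+/+ arrays, and that of Eif2b3 in both genotypes, so that Eif2b2 was the only eIF2B gene whose mean was above background in both genotypes. Background was taken as the 95th percentile of 1023 probe sets of olfactory receptors, 6.79 in lal+/+ and 6.29 in lal-/- arrays. Among the genes called higher, lal+/+ replicate 2 lay under this bound for Eif2b2, Eif4h and Eif4ebp2. The median over the complex was 0.52, and 0.38 and 0.56 under the other scalings.

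None of the 3 eIF2 subunit genes was called. Eif2s3x, the X-linked gene of the gamma subunit, was 9.57 and 9.16 in lal+/+ and 9.77 and 9.78 in lal-/- arrays (log2 fold change 0.41, 95% interval 0.02 to 0.80, limma adjusted p = 0.106). The Y-linked copy Eif2s3y was 9.51 and 9.15 in lal+/+ and 9.33 and 9.47 in lal-/- arrays, with overlap between the genotypes (log2 fold change 0.07, limma adjusted p = 0.773). It was above background on all 4 arrays, although signal from the closely similar X copy cannot be separated from it here. Eif2s2, the beta subunit, had -0.18, and 0.42 with a common median or 0.24 as deposited.

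All 4 kinases of eIF2 passed the adjusted p, 3 as higher and 1 as lower (19.8% and 9.85% of all genes did), and none reached a fold of 2. Eif2ak1 encodes HRI, which is activated by lack of heme and by mitochondrial stress. It was 8.50 and 8.26 in lal+/+ and 9.08 and 9.05 in lal-/- arrays, above in both (log2 fold change 0.68, limma adjusted p = 0.00877), and it was called higher under both other scalings. Eif2ak3 encodes PERK, the kinase of endoplasmic reticulum stress.

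Eif2ak3 was 7.98 and 7.84 in lal+/+ and 8.34 and 8.33 in lal-/- arrays (log2 fold change 0.42, limma adjusted p = 0.0411). It did not pass when all probe sets entered (adjusted p = 0.0697) or with the replicate number as a block (adjusted p = 0.0749). Eif2ak2, the double-stranded RNA sensor PKR, was 5.80 and 5.85 in lal+/+, at background, and 6.31 and 6.52 in lal-/- arrays (log2 fold change 0.59, limma adjusted p = 0.0158), and it did not pass as deposited (0.40, adjusted p = 0.0654). Eif2ak4, the amino acid sensor GCN2, went the other way, at 6.61 and 6.58 in lal+/+ and 5.69 and 6.05 in lal-/- arrays (log2 fold change -0.72, limma adjusted p = 0.0122). Its lal-/- arrays lay below its lal+/+ arrays, but both genotypes were at background for this probe set. Of the alternative carriers of the initiator tRNA, Eif2a had -0.56 (adjusted p = 0.0145) and Eif2d 0.30 (adjusted p = 0.117). Eif2a did not pass as deposited (-0.23, adjusted p = 0.265) or with a common median (-0.0477, adjusted p = 0.850).

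The 11 eIF3 subunit genes split in direction, with 7 above and 4 below 0 and a median of 0.04. 7 passed the adjusted p, 3 as higher and 4 as lower (19.8% and 9.85% of all genes did). This balance depended on the scaling. As deposited 6 passed as higher and 2 as lower (21.4% and 14.5% of all genes). With a common median 6 passed as higher and 1, Eif3a, as lower (26.7% and 7.7% of all genes). Eif3a, the largest subunit and scaffold of the complex, was 11.01 and 10.95 in lal+/+ and 9.82 and 9.77 in lal-/- arrays. The arrays of each genotype differed by under 0.1 and the genotypes by more than 1 on the log2 scale, a 2.27-fold decrease (log2 fold change -1.18, SE 0.12, limma adjusted p = 5.78e-04). The decrease was -0.75 with the values as deposited (adjusted p = 0.00294) and -0.57 with a common median (adjusted p = 0.0123).

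Eif3e was 10.10 and 10.19 in lal+/+ and 9.34 and 9.16 in lal-/- arrays (log2 fold change -0.89, limma adjusted p = 0.00250). Its value was -0.43 as deposited (adjusted p = 0.0420) and -0.25 with a common median, where it did not pass (adjusted p = 0.226). Eif3m had -0.63 (adjusted p = 0.00884), with -0.36 in its second probe set, and Eif3i -0.50 (adjusted p = 0.0211). Eif3m did not pass as deposited (-0.23, adjusted p = 0.249) or with a common median (-0.0553, adjusted p = 0.825), and Eif3i turned to 0.13 with a common median. In the other direction Eif3l was 7.95 and 7.67 in lal+/+ and 8.76 and 8.54 in lal-/- arrays (log2 fold change 0.84, limma adjusted p = 0.00656). Eif3d, a subunit that can bind the cap itself, had 0.61 (adjusted p = 0.0200) and Eif3k 0.48 (adjusted p = 0.0488). Neither Eif3d nor Eif3k passed when all probe sets of the array entered the fit (adjusted p = 0.0506 and 0.0924). Eif3l and Eif3d were called higher under both other scalings and Eif3k with a common median. Eif3h had 0.31 (adjusted p = 0.106), Eif3b 0.12, Eif3c 0.04 and Eif3f 0.03.

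The subunits were also grouped by the parts of the complex in which they sit. Eif3g, of the part around Eif3a, was not among the members. The part around Eif3a (Eif3a, Eif3b, Eif3i) had a median of -0.50, that of Eif3c, Eif3d, Eif3e, Eif3k and Eif3l of 0.48, and that of Eif3f, Eif3h and Eif3m of 0.03. The medians were -0.05, 0.95 and 0.46 as deposited, and 0.13, 1.13 and 0.64 with a common median, where the sign of the Eif3a part turned. In the quantile-normalized values each part held genes on both sides of 0. Between Eif3l and Eif3a, picked after their values were seen as the ends of the range, the fold changes differed by 2.02, and by 1.87 under both other scalings. This difference does not depend on the level to which an array is shifted.

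**Figure D3:**
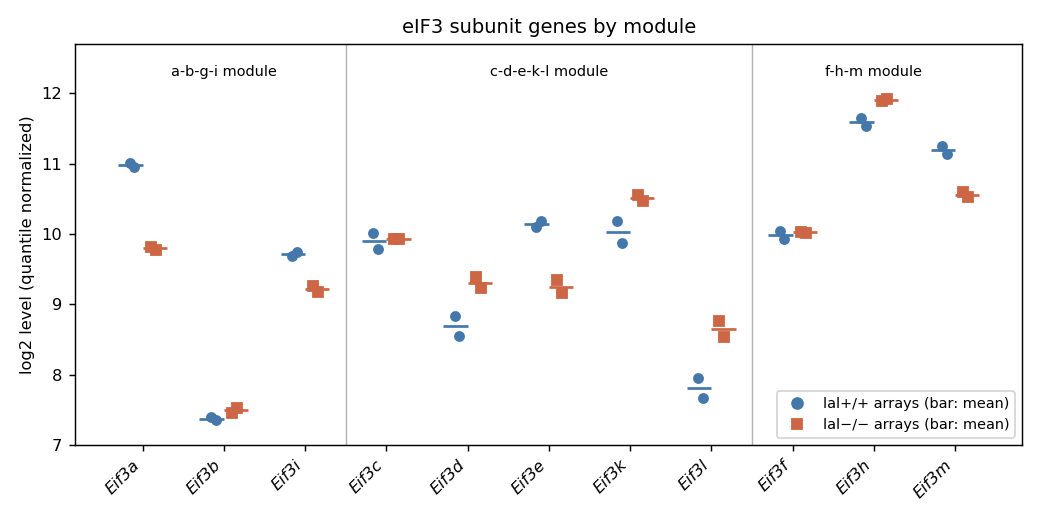
Quantile-normalized log2 level (y axis) of the 11 eIF3 subunit genes on each array, grouped by part of the complex. The mean of each genotype is a line. The lal-/- points lie below the lal+/+ points for Eif3a, Eif3e, Eif3i and Eif3m. They lie above them for Eif3b, Eif3d, Eif3h, Eif3k and Eif3l, and overlap with them for Eif3c and Eif3f.

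Of the 5 factors that act late in initiation or were named with it, 1 was called higher and 1 lower, where 7.56% and 3.24% of all genes were. Eif5a encodes a factor, carrying the modified amino acid hypusine, that despite its name acts mainly in elongation and termination. It was 7.94 and 7.86 in lal+/+ and 9.66 and 9.88 in lal-/- arrays. Both lal-/- arrays were well above both lal+/+ arrays, a 3.65-fold increase (log2 fold change 1.87, SE 0.13, limma adjusted p = 1.69e-04). Its other probe set was higher as well but under the fold threshold (0.51, adjusted p = 0.0241), and the mean of the 2 gave 1.19. By number this other probe set lies among those of chromosome 11, where Eif5a is placed. The probe set called higher does not, and which locus it measures was not tested. Eif5a2, the paralog, was at background in both genotypes.

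Eif5b encodes the GTPase that joins the large subunit. It was 10.15 and 10.33 in lal+/+ and 8.80 and 9.05 in lal-/- arrays. Both lal-/- arrays were lower by more than 1 on the log2 scale, a 2.49-fold decrease (log2 fold change -1.31, SE 0.15, limma adjusted p = 8.22e-04). The value was -0.87 as deposited (adjusted p = 0.00201) and -0.70 with a common median (adjusted p = 0.00556). Eif5, which triggers GTP hydrolysis by eIF2, had -0.05, with 0.08 as deposited and 0.26 with a common median.

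Eif6 encodes a factor that keeps the large subunit apart from the small one and takes part in its assembly. It was 7.30 and 7.62 in lal+/+ and 8.31 and 8.29 in lal-/- arrays (log2 fold change 0.84, limma adjusted p = 0.00552). Both lal-/- arrays were higher, by less than the fold threshold, and the gene was called higher without lal+/+ replicate 2 and under both other scalings. The eIF1 group was formed by symbol alone, and Eif1 itself was not among the members. In this group Eif1ad had 0.88 (adjusted p = 0.00306) and Eif1b, a close relative of eIF1, had 0.60 (adjusted p = 0.00980). Both were called higher under the other scalings. Eif1ax had 0.26 (adjusted p = 0.144) and Eif1a -0.26 (adjusted p = 0.156, 0.17 with a common median).

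**Figure D4:**
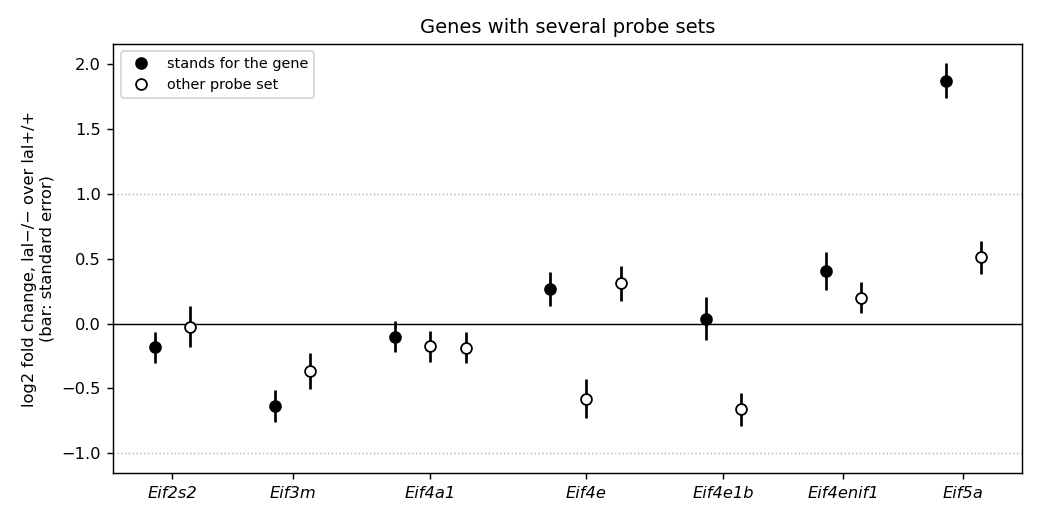
Log2 fold change (lal-/- minus lal+/+) of each probe set of the 7 members that have several, with the probe set of highest mean marked. The probe sets of Eif4a1 lie close together, those of Eif5a are both above 0 but far apart, and those of Eif4e lie on both sides of 0.

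Among the partners of initiation outside the family, 11 of 12 genes listed for the cap complex and the 43S complex were measured. Of these 1 was called higher and 2 lower (median 0.39), where 7.56% and 3.24% of all genes were. As deposited 2 were called higher and 1 lower (median 0.58), and with a common median 4 higher (Dhx29, Mcts1, Mknk1 and Paip1) and 0 lower (median 0.76). Pdcd4, an inhibitor that keeps the helicase eIF4A from eIF4G, was 10.95 and 10.70 in lal+/+ and 9.21 and 9.42 in lal-/- arrays. It was lower on both lal-/- arrays (log2 fold change -1.51, SE 0.15, 2.85-fold, limma adjusted p = 5.04e-04), with -1.08 as deposited and -0.90 with a common median, where the fold threshold was missed. Abce1, which splits ribosomes after termination, was also lower (-1.16, adjusted p = 0.00135), and Dhx29, a helicase of the scanning subunit, was higher (1.02, adjusted p = 0.00135). Abce1 did not reach the fold under either other scaling (-0.90 as deposited, -0.72 with a common median), and Dhx29 did under both.

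Downstream of eIF2 phosphorylation, 1 of 9 genes of the integrated stress response was called higher and 0 lower, where 7.56% and 3.24% of all genes were. Asns, asparagine synthetase and a target of ATF4, was 7.74 and 7.58 in lal+/+ and 10.04 and 9.90 in lal-/- arrays. It was 4.97-fold higher (log2 fold change 2.31, SE 0.13, limma adjusted p = 8.62e-05). Atf4 itself had 0.89 (adjusted p = 0.00229) and Ppp1r15b, a subunit of the phosphatase that acts on eIF2, had 0.76 (adjusted p = 0.00480). Both were called higher under the other scalings.

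Sesn2 passed the adjusted p as higher too (0.69, limma adjusted p = 0.00662). Lower by less than the fold threshold were Ppp1r15a, the inducible phosphatase subunit, at -0.98 (adjusted p = 0.00129) and Ddit3, which encodes CHOP, at -0.75 (adjusted p = 0.00450). So 4 of the 9 genes passed as higher and 2 as lower, against 19.8% and 9.85% of all genes. Trib3 (0.30), Chac1 (-0.01) and Ddit4 (-0.27) did not pass. These 3 genes and Sesn2 were at background in lal+/+ arrays. Ddit3 had -0.28 as deposited and -0.10 with a common median. The median of the 9 genes was 0.30.

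Of 6 measured genes of mTORC1 and S6 control, 1 was called higher and 0 lower, where 7.56% and 3.24% of all genes were. The gene called was Mlst8, a subunit of both mTOR complexes. It was 5.44 and 5.43 in lal+/+, at background, and 7.22 and 7.61 in lal-/- arrays (log2 fold change 1.98, SE 0.16, limma adjusted p = 2.32e-04). Larp1 passed the adjusted p as lower (-0.59, limma adjusted p = 0.0126). It did not pass as deposited (-0.41, adjusted p = 0.0571) or with a common median (-0.23, adjusted p = 0.292). Mtor had 0.09 and the median of the list was 0.19. Of 7 elongation and termination genes 0 were called higher and 0 lower (median -0.59), where 7.56% and 3.24% of all genes were. In the limma fit 4 of them passed the adjusted p as lower and 1 as higher (9.85% and 19.8% of all genes did). Those lower were Gspt1 (-0.99, adjusted p = 0.00131), Eef1d (-0.92, adjusted p = 0.00305), Eef2 (-0.71, adjusted p = 0.00970) and Eef1b2 (-0.59, adjusted p = 0.0126). Etf1 was the higher one (0.97, adjusted p = 0.00614). Etf1 was called higher under both other scalings, where the median of the list was -0.38 (as deposited) and -0.21 (common median). With a common median Gspt1 (-0.38, adjusted p = 0.0961) and Eef1d (-0.38, adjusted p = 0.0745) did not pass. Eef2 and Eef1b2 passed neither there (-0.05, adjusted p = 0.856, and -0.21, adjusted p = 0.325) nor as deposited (-0.23, adjusted p = 0.327, and -0.38, adjusted p = 0.0591). Of the mitochondrial initiation factors Mtif2 and Mtif3 neither was called, but Mtif3 (0.80) was called higher as deposited (adjusted p = 9.05e-04) and with a common median (1.18).

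**Figure D5:**
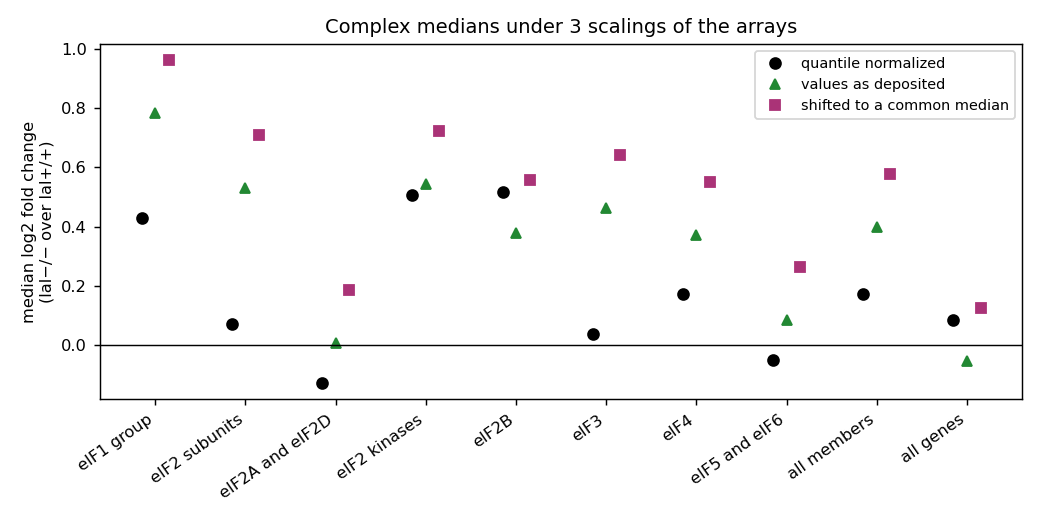
Median log2 fold change (lal-/- minus lal+/+) of each group of initiation factors under the 3 scalings. All groups but eIF2B move upward from the quantile-normalized values to the other 2 scalings, and eIF2B lies at 0.52, 0.38 and 0.56.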

How the data were processed

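Expression was measured on Affymetrix Mouse Gene 1.0 ST arrays. The authors scanned the arrays with GCOS 1.1 and made log2 values by RMA in Partek Genomics Suite, as the labels and methods state, and deposited them for 35557 probe sets. RMA compresses low signals, which understates changes near background. The gene table lists 23410 probe sets, of which 21789 name 1 gene. Symbols of 21698 of these were updated and 91 kept. The deposited columns were quantile normalized because their medians differed by over 0.1. Genotype was tested with limma 3.58.1 in R 4.3.3 (residual degrees of freedom 2, prior 4.83), and p-values of these 21789 probe sets were adjusted together by Benjamini-Hochberg. All 4 arrays entered, and their number limits the precision. Permuting 2 against 2 arrays cannot give a p under 0.333, so no such test is given. The test was tried on simulated data. The labels give no batch. Members, gene lists and tests were chosen with earlier results of these data known. Every member may be named. Array values are given for the called members and for a list of regulators and subunits chosen by role, and of the other pathway genes those called or bearing on these. Promoters are RefSeq's, GRCm38.p6. They were matched for 39 members and not for 10. Alternatives tried were the scaling, a filter on dim probe sets, the probe sets fitted, the variance model, a replicate block, the thresholds, the rule for several probe sets, and leaving out each array.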

Additional observations from a re-analysis of the deposited data

How the results depend on the processing

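With 2 arrays a genotype the spread within a genotype is poorly known, and changes of genes at background are understated. The scaling moved most results. Relative to the quantile-normalized values, the median of all genes moved by -0.14 as deposited. The counts of members called higher and lower were 5 and 2. They were 15 and 0 with a common median, 12 and 0 as deposited, and 16 and 9 with no fold threshold. With an ordinary linear model in place of moderated variances 0 members and 0 of all genes were called (24 members had an unadjusted p under 0.05 there). Leaving out 1 array in turn gave 4 to 6 higher and 2 lower.

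Medians by group with a common median were 0.96 (eIF1), 0.71 (eIF2 subunits), 0.18 (eIF2A and eIF2D), 0.72 (kinases), 0.64 (eIF3), 0.55 (eIF4) and 0.26 (eIF5 and eIF6). As deposited they were 0.78 (eIF1), 0.53 (eIF2 subunits), 0.0057 (eIF2A and eIF2D), 0.46 (eIF3), 0.37 (eIF4) and 0.0842 (eIF5 and eIF6), and with dim probe sets left out 0.40 (eIF5 and eIF6). Leaving out 1 array in turn, they ranged from 0.41 to 0.45 (eIF1), -0.11 to 0.25 (eIF2 subunits), -0.15 to -0.11 (eIF2A and eIF2D), 0.45 to 0.54 (kinases), 0.30 to 0.74 (eIF2B), -0.0243 to 0.13 (eIF3), 0.14 to 0.25 (eIF4) and -0.08 to -0.02 (eIF5 and eIF6).

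Single genes changed sign as follows, none of them called. With a common median Eif1a was 0.17, Eif2s2 0.42, Eif2b4 0.0026, Eif3i 0.13, Eif4a1 0.55, Eif4a3 0.48, Eif4b 0.0612, Eif4g3 0.50 and Eif5 0.26. As deposited Eif2s2 was 0.24, Eif4a1 0.37, Eif4a3 0.30, Eif4a3l1 -0.0896, Eif4e1b -0.0088, Eif4g3 0.32 and Eif5 0.0842. With the mean of a gene's probe sets Eif4e was -6e-04 and Eif4e1b -0.31. Leaving out 1 array in turn, Eif2s3y ranged from -0.11 to 0.25 (below 0 without lal+/+ replicate 2), Eif2b4 from -0.0332 to 0.0173 (above 0 without lal-/- replicate 2), Eif3c from -0.0776 to 0.153 and Eif3f from -0.0243 to 0.0874 (both below 0 without lal+/+ replicate 2), Eif4e1b from -0.15 to 0.23 (below 0 without lal+/+ replicate 1 or lal-/- replicate 1) and Eif4g3 from -0.0528 to 0.023 (above 0 without lal+/+ replicate 1 or lal-/- replicate 2). The cause was not tested.

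The replicate numbers share only a label. Arrays of the same number deviated with a correlation of -0.175, and both the fit with the replicate block and the one with the pairing crossed, added after seeing the data, called 5 members higher and 2 lower. Of the named genes, the block changed no call, though Eif2ak3 and Eif3k no longer passed the adjusted p with it (0.0749 and 0.0529).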

Other observations

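Probe sets that name an initiation factor gene together with other genes are not in the counts above. All 4 that name Eif1a beside 7 predicted or paralogous genes were called lower in lal-/- MDSCs in the limma fit over all probe sets, with log2 fold changes of -1.58, -1.56, -1.17 and -1.71, where the probe set naming Eif1a alone had -0.26. Their signal cannot be assigned to 1 gene. Both probe sets shared by Eif3j1 and Eif3j2, which encode the loosely bound eIF3 subunit that contacts the decoding site, were lower by less than the fold threshold (-0.81, adjusted p = 0.0145, and -0.95, adjusted p = 0.0125, limma over all probe sets). On the first of these the lal+/+ arrays were at 10.49 and 10.45 and the lal-/- arrays at 9.75 and 9.57. The probe sets shared by Eif4a3 and Eif4a3l1 had -0.12 and -0.19, that of Ankhd1 and Eif4ebp3 -0.21, and that of Snora28 and Eif5 0.60, none passing the adjusted p.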
